A study of Rattus norvegicus with 6 samples.

Results

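The transcripts of 10 neutrophil genes were followed in the rat trigeminal ganglion, the cluster of sensory nerve cells that serves the face. The genes were S100a8, S100a9, Mpo, Elane, Prtn3, Ngp, Camp, Lcn2, Mmp8 and Csf3r, picked by symbol from a table of 29884 genes, and all 10 were found in it. They were listed with the difference between the groups already known, so their values in that comparison are given as a description. All 6 samples were wild type rat ganglia after lasting constriction of the infraorbital nerve (the CCI-ION procedure), a model of trigeminal neuralgia. The 3 injury samples had the constriction alone, and the 3 conduit samples had the constriction and then the SFM-Gel-light @NGC treatment, a light-driven gel within a nerve conduit. Neither an unconstricted ganglion nor a conduit without light is among the samples, and the labels give no age or sex and do not say whether a sample is 1 animal or a pool. The labelled days after injury are 14, 15 and 16 for injury samples 1, 2 and 3 and 17, 18 and 19 for conduit samples 1, 2 and 3. Labelled batch 1 holds injury samples 1 and 2, batch 2 holds injury sample 3 and conduit sample 1, and batch 3 holds conduit samples 2 and 3, so group and day cannot be told apart, and group and batch only within batch 2, with 1 library a group. The labelled days rise by 1 from sample to sample in label order, and the labels do not settle whether they are true sampling days.

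Neutrophils are short-lived white cells that kill microbes with proteins stored in granules. The granules are filled in turn while the cell matures in the bone marrow: azurophil granules (Mpo, Elane, Prtn3) at the promyelocyte stage, then specific and gelatinase granules (Ngp, Camp, Lcn2, Mmp8), and the azurophil genes are largely silent in mature blood neutrophils. S100a8 and S100a9 encode the 2 chains of calprotectin, a cytosolic calcium-binding protein that acts as an alarm signal when released, and Csf3r encodes the receptor for granulocyte colony-stimulating factor, which drives neutrophil production.

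Transcripts of all 10 genes were most abundant in injury sample 2, followed in all 10 by injury sample 3. Injury sample 1 was the lowest injury library for all 10, and for 5 of them at least 1 conduit library lay above it. The share of all genes with these library orders was not counted, here or for the gene lists below. The 10 genes together took 705.5 CPM (a gene's reads relative to the reads of its library, with library sizes scaled by TMM) in injury sample 2 and 137.2 in injury sample 3. They took 62.56 CPM in injury sample 1 and 18.22, 40.58 and 20.59 CPM in conduit samples 1, 2 and 3. The summed level therefore differed more among the 3 injury libraries than between injury sample 1 and the conduit libraries. In bulk tissue, fewer cells of a type and less RNA per cell cannot be told apart.

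**Figure D1:**
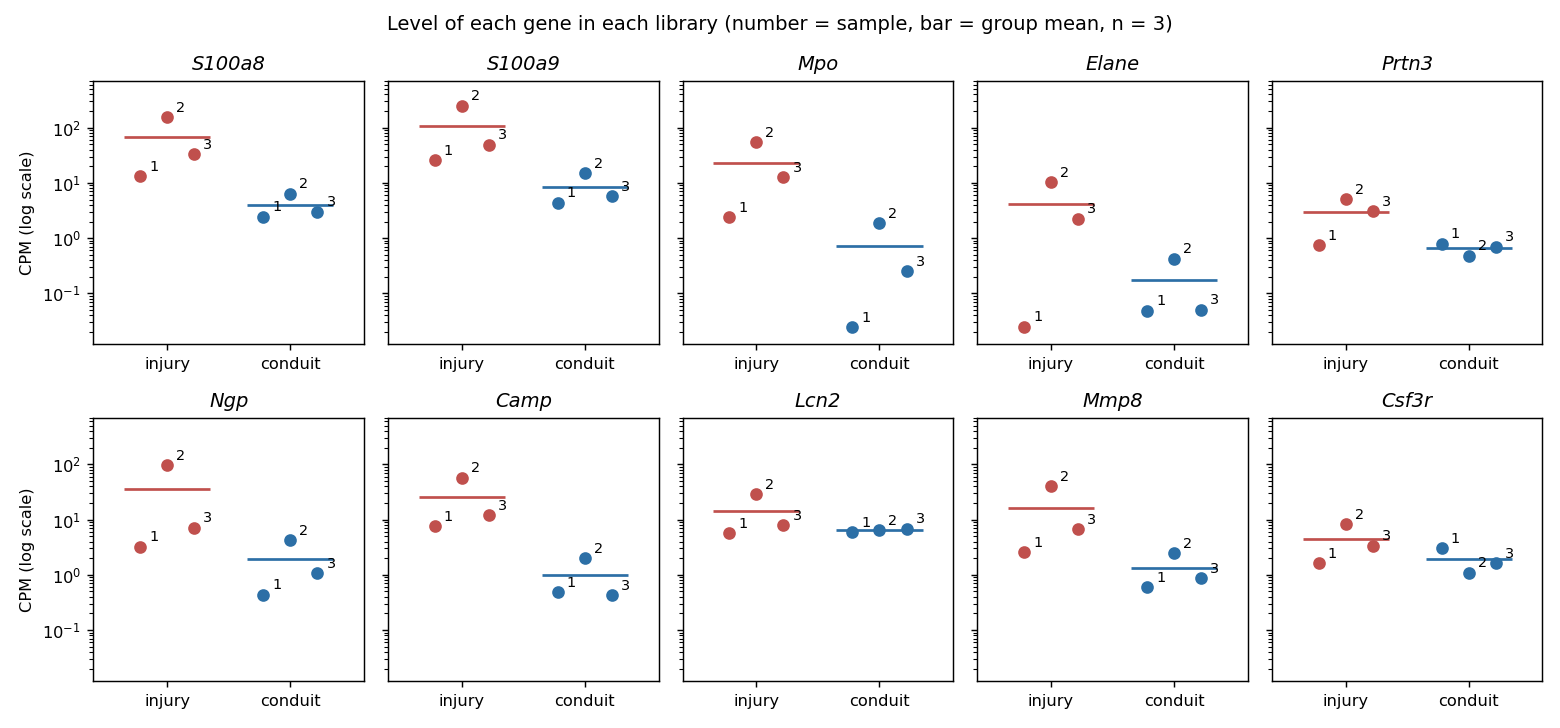
CPM of each gene on a log axis in the 3 injury (red) and 3 conduit (blue) libraries, with the sample number beside each point and a bar at the group mean (n = 3). Injury sample 2 is the highest point in all 10 panels, and Lcn2 and Csf3r span the least.

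The libraries held 40.2 M to 41.9 M counts, and between 19894 and 21061 genes had at least 1 read. Markers of the labelled tissue were abundant in all 6: 10 sensory neuron genes summed to 18900 to 20400 CPM in injury and 17600 to 25000 in conduit, and 6 satellite glia genes to 4350 to 4930 and 4920 to 5750 CPM. For 6 myelinating Schwann cell genes the sums were 28700 to 35200 CPM in injury and 42000 to 48200 in conduit. Of these, 4 were higher in conduit at an unadjusted p under 0.05 in edgeR's quasi-likelihood test, beside 2.99% of all genes, and 0 passed after adjustment. Of the defining genes of neutrophils outside the 10, Ltf (lactoferrin) had no read in any library, which allows up to 3 reads per library, or 0.0753 CPM. Whether the counting could assign reads to a gene without any, such as Ltf, was not tested. Cxcr2, the chemokine receptor of mature neutrophils, had 78 reads in injury sample 2 and at most 1 in each other library.

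S100a8 had 536, 6518 and 1373 reads in injury samples 1, 2 and 3, or 13.3, 154 and 33.1 CPM. In conduit samples 1, 2 and 3 it had 102, 254 and 120 reads, or 2.46, 6.38 and 3.01 CPM. The groups did not overlap, and injury sample 2 alone gave 76.9% of the summed injury level. The means were 66.9 ± 76.3 CPM in injury and 3.95 ± 2.12 in conduit (SD, n = 3), with a fitted log2 fold change, conduit over injury, of -4.08 (SE 1.06).

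S100a9, its partner chain, had 25.5, 250 and 49.3 CPM in injury samples 1, 2 and 3 and 4.42, 15.1 and 5.7 CPM in conduit samples 1, 2 and 3. The order of the 6 libraries was the same as for S100a8, again with no overlap, and the fitted log2 fold change was -3.68 (SE 1.08). S100a8 and S100a9 lie beside each other in RefSeq's rat annotation (GRCr8), with no protein-coding gene between them. The reads of S100a9 were between 1.49 and 2.37 times those of S100a8 in every library, while S100a8 itself spanned 62.7-fold over the same libraries. The pair therefore moved nearly in step from library to library. Of 11 other S100 genes tested, 0 passed edgeR's quasi-likelihood test at an adjusted p under 0.05 and 0 had an unadjusted p under 0.05, against 5.35% of all genes tested at that unadjusted level. S100b, the abundant glial member of the family, lay between 1480 and 1780 CPM in injury and between 1770 and 2210 CPM in conduit.

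Among the azurophil granule genes, Mpo ran from 1 to 2330 reads and Elane from 1 to 439, so both had a library at 1 read. Mpo, the myeloperoxidase that makes hypochlorous acid, had 96, 2330 and 523 reads in injury samples 1, 2 and 3 and 1, 75 and 10 in conduit samples 1, 2 and 3. That is 2.39, 55.1 and 12.6 CPM in injury and 0.0241, 1.88 and 0.251 CPM in conduit, with no overlap. The means were 23.4 ± 28 and 0.719 ± 1.01 CPM (SD, n = 3), and the fitted log2 fold change was -5.02 (SE 1.67). The single read of conduit sample 1 has an exact 95% Poisson interval of 0.0253 to 5.57 reads, which covers counting error only, so the fitted fold rests partly on a value near 0.

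Elane, neutrophil elastase, had 1, 439 and 93 reads in injury samples 1, 2 and 3 and 2, 17 and 2 in conduit samples 1, 2 and 3. Injury sample 1 was the lowest of all 6 libraries, so the groups overlapped, and only 3 libraries stood above the limit of 3 reads. The means were 4.22 ± 5.45 and 0.175 ± 0.218 CPM (SD, n = 3; log2 fold change -4.57, SE 1.79). Elane and Mpo differed in injury sample 1: there Mpo still had 96 reads, more than in any conduit library, whereas Elane had 1.

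Prtn3, proteinase 3, is a close relative of Elane and its direct neighbour in RefSeq's annotation, with no protein-coding gene between them. It had 30, 217 and 127 reads in injury samples 1, 2 and 3 and 33, 19 and 28 in conduit samples 1, 2 and 3. Only injury samples 2 and 3 stood above the rest, and injury sample 1 lay within the conduit range of 0.477 to 0.796 CPM. The fitted log2 fold change was -2.17 (SE 0.68). Where Mpo and Elane were nearly without reads, Prtn3 was not: in conduit sample 1 Prtn3 had 33 reads, Elane 2 and Mpo 1, while in injury sample 2 Prtn3 had the fewest of the 3, at 217 against 439 and 2330. The sources used here do not give the strand setting of the counting, so reads of an overlapping or antisense transcript cannot be told apart from those of Prtn3.

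Ngp, a neutrophilic granule protein of the cystatin and cathelicidin type, had 130, 4085 and 294 reads in injury samples 1, 2 and 3 and 18, 169 and 43 in conduit samples 1, 2 and 3. Conduit sample 2, at 4.24 CPM, lay above injury sample 1, at 3.23 CPM, so the groups overlapped. Injury sample 2 gave 90.4% of the summed injury level, the highest such share among the 10 genes. The means were 35.6 ± 52.8 and 1.92 ± 2.04 CPM (SD, n = 3; log2 fold change -4.22, SE 1.70).

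Camp encodes the rat cathelicidin, an antimicrobial peptide of specific granules. It had 302, 2412 and 499 reads in injury samples 1, 2 and 3 and 20, 80 and 17 in conduit samples 1, 2 and 3, with no overlap. Its gap between injury sample 1 and the conduit mean, 7.72-fold, was the widest among the 10 genes. The means were 25.5 ± 27.4 and 0.973 ± 0.898 CPM (SD, n = 3; log2 fold change -4.71, SE 1.08). Ngp and Camp lie on the same chromosome with 9 protein-coding genes between them, and their reads did not keep 1 ratio: Ngp had 0.43 times the reads of Camp in injury sample 1 and 1.69 times in injury sample 2.

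Mmp8, the neutrophil collagenase, had 2.54, 40.4 and 6.67 CPM in injury samples 1, 2 and 3 and 0.603, 2.46 and 0.879 CPM in conduit samples 1, 2 and 3. The groups did not overlap, but injury sample 1 (102 reads) and conduit sample 2 (98 reads) differed by less than counting error, with exact 95% Poisson intervals of 83.2 to 124 and 79.6 to 119 reads. The fitted log2 fold change was -3.65 (SE 1.18).

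Lcn2 and Csf3r spanned the least over the 6 libraries, 4.99-fold and 7.43-fold, with Prtn3 next at 10.8-fold. Lcn2 encodes lipocalin 2, which withholds iron from bacteria and is also made by many cell types outside the neutrophil lineage. It was 5.72, 28.6 and 7.86 CPM in injury samples 1, 2 and 3 and 5.89, 6.45 and 6.86 CPM in conduit samples 1, 2 and 3. All libraries but injury sample 2 lay between 5.72 and 7.86 CPM, and the conduit libraries had the smallest relative spread of the 10 genes, at 6.4 ± 0.486 CPM (SD, n = 3). The fitted log2 fold change was -1.13 (SE 0.60).

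Csf3r was 1.62, 8.21 and 3.35 CPM in injury samples 1, 2 and 3 and 3.06, 1.1 and 1.63 CPM in conduit samples 1, 2 and 3. Injury sample 1 and conduit sample 3 were level, with 65 reads each. Conduit sample 1 lay above both and was close to injury sample 3, with 127 against 139 reads. The fitted log2 fold change was -1.18 (SE 0.65). Csf3r is also expressed by monocytes and macrophages, and conduit sample 1 had the highest sum of 11 monocyte and macrophage markers, 260 CPM against 107 to 158 in injury and 115 to 122 in the other conduit libraries. The part of those cells in the Csf3r level was not tested. Its ligand gene Csf3 had no read in any library.

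**Figure D2:**
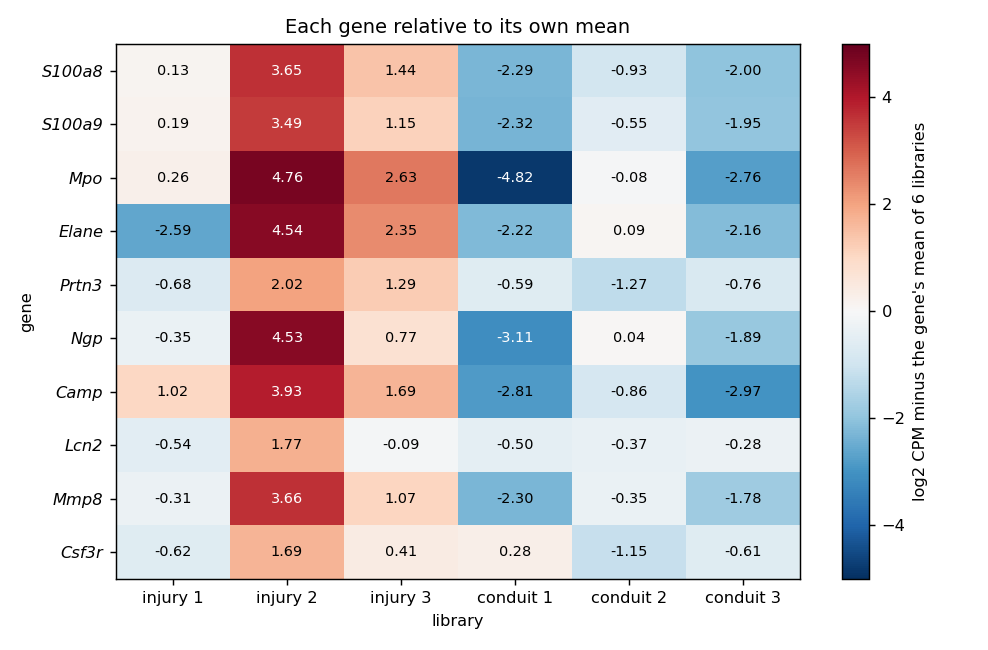
Log2 CPM of each gene (rows) in each library (columns) minus that gene's mean over the 6 libraries, with red above and blue below the mean and the value printed in each cell. Injury sample 2 is from 1.69 to 4.76 above the mean in all rows, and the lowest and highest values, -4.82 and 4.76, are both of Mpo.

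Because transcripts differ in length, levels of different genes were compared on the deposited FPKM scale. In injury sample 2 the order was S100a8 at 328 FPKM, S100a9 at 160, Camp at 102, Ngp at 90, Lcn2 at 34.4, Mpo at 19.9, Mmp8 at 17.8, Elane at 11.2, Prtn3 at 3.44 and Csf3r at 2.18. In conduit sample 1 Lcn2 led at 6.83 FPKM, ahead of S100a8 at 5.05 and S100a9 at 2.73, and Mpo was last at 0.00842. Over the injury group the SD exceeded the mean for 7 of the 10 genes. S100a8 and S100a9 shared this spread: S100a9 had 0.448 to 0.715 times the FPKM of S100a8 in all 6 libraries. Camp and Ngp did change order, with Camp at 4.48 times the FPKM of Ngp in injury sample 1 and 0.762 times in conduit sample 3. The FPKM values imply a length of 494 bases for S100a8 and 1640 for S100a9. The higher FPKM of S100a8, against more reads for S100a9, therefore depends on the lengths that the authors used.

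In the comparison of conduit with injury over 16478 genes, 0 of the 10 genes passed edgeR's quasi-likelihood test at an adjusted p under 0.05, beside 0.00607% of all genes tested, which is the single gene RGD1563601, named here after its result was seen. At an unadjusted p under 0.05, 7 of the 10 were lower in conduit, beside 2.36% of all genes. DESeq2 called 3 lower (S100a8, S100a9 and Camp), beside 0.572% of the genes it tested, and limma-voom called 0, beside 0.00607%. No overlap between injury and conduit libraries was seen for 5 of the 10 (S100a8, S100a9, Mpo, Camp and Mmp8), beside 4.22% of all genes in that direction. The median fitted log2 fold change of the 10 was -3.88, and that of all genes tested was 0.0017. All 10 passed the filter on low counts; Elane reached 10 reads only in injury samples 2 and 3 and conduit sample 2. Since the genes were listed with this comparison known, these counts are no test of them.

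The size of the fold depended on injury samples 2 and 3. With injury sample 2 left out, the median of the 10 log2 fold changes was -1.98, and the single values ran from -3.38 for Mpo to -0.09 for Lcn2. Without injury samples 2 and 3, a setting chosen after the data were seen, it was -0.85, and Elane (2.67), Lcn2 (0.16) and Csf3r (0.26) were higher in conduit than in injury sample 1, Elane from 1 read in that library. S100a8 (-1.76), S100a9 (-1.60), Mpo (-1.73) and Camp (-2.95) remained lower in conduit by more than 1 log2 unit in that setting. Within labelled batch 2, conduit sample 1 lay below injury sample 3 for 10 of 10 genes. The share of all genes in that direction was not counted. The median log2 difference of the 10 was -3.59, beside -0.0011 for all genes tested. The log2 difference between these libraries was -4.51 for Camp, -3.72 for S100a8, -0.41 for Lcn2 and -0.13 for Csf3r, with 1 library a group and so no test. Within batch 1, where both libraries are injury, sample 2 exceeded sample 1 by 4.99-fold for Lcn2, 11.6-fold for S100a8, 23.1-fold for Mpo and 29.9-fold for Ngp. Batch 3 holds conduit libraries only, and there sample 2 exceeded sample 3 by 2.12-fold for S100a8 and 7.5-fold for Mpo but had 0.679 times its level of Prtn3, 0.677 times that of Csf3r and 0.942 times that of Lcn2.

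**Figure D3:**
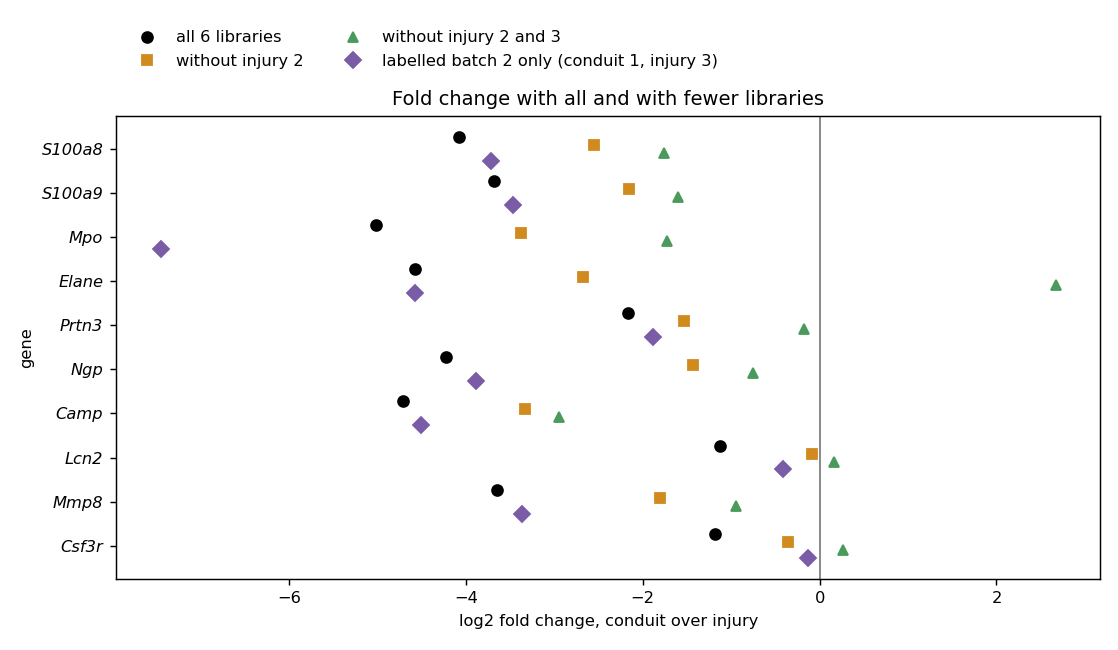
Fitted log2 fold change, conduit over injury, of each gene with all 6 libraries (circles), without injury sample 2 (squares), without injury samples 2 and 3 (triangles) and as the difference of log2 CPM within labelled batch 2 (diamonds); the grey line marks no difference. Without injury samples 2 and 3, Elane, Lcn2 and Csf3r lie to the right of 0.

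Upstream sequences of 8 of the 10 genes were in RefSeq's promoter table (GRCr8); S100a8 and Elane were not. The 250 bases before the start were searched on both strands for letters that myeloid factors are known to bind: C/EBP (TTGCNNAA), PU.1 (GAGGAAG), MYB (AACGG) and RUNX (TGTGGT), and for the TATA box (TATAAA). The last 150 bases before the start are printed for the genes with a match there, to set the azurophil genes Mpo and Prtn3 beside the later granule genes Mmp8 and Ngp and the alarm gene S100a9. Capitals mark a match of any of these motifs on either strand, and matches of different motifs may overlap.
Mpo, chr10:73092252-73092401, plus strand: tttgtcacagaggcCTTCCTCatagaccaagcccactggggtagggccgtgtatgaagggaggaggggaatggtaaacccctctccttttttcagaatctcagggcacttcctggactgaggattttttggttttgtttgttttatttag
Prtn3, chr7:10476197-10476346, minus strand: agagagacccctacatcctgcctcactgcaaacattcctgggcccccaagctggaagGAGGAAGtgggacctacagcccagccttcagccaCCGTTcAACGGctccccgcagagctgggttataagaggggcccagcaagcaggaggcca
Mmp8, chr8:13008740-13008889, plus strand: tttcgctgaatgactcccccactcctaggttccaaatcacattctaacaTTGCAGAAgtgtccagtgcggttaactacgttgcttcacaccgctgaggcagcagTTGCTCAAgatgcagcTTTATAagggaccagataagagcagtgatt
Ngp, chr8:119272455-119272604, plus strand: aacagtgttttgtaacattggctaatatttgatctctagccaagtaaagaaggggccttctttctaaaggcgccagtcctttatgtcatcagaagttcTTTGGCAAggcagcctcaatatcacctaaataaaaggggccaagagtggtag
S100a9, chr2:178490623-178490772, minus strand: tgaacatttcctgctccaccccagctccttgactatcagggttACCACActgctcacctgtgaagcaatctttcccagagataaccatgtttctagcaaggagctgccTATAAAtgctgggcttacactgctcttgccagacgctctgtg

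The C/EBP letters were found in 3 of the 8 windows (Lcn2, Mmp8 and Ngp) and in 9.22% of all 33469 promoters in the table. The PU.1 letters were found in 3 of 8 (Csf3r, Prtn3 and Mpo) and in 10.2% of all promoters, the MYB letters in 2 of 8 (Lcn2 and Prtn3) and in 14.3%, the RUNX letters in 1 of 8 (S100a9) and in 14.5%, and the TATA box in 2 of 8 (S100a9 and Mmp8) and in 12.9%. The printed Prtn3 sequence holds the PU.1 letters and the MYB letters on both strands, and that of Mpo the PU.1 letters on the minus strand. Mmp8 and Ngp each hold the C/EBP letters at 2 places of the searched window. In Ngp these begin 179 and 52 bases before the start, and the first lies outside the printed bases. None of these motifs was found in the window of Camp. A match is a description of letters and not a site in use.

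Of 24 other genes for granule and cytosolic proteins of neutrophils, 19 passed the filter. Injury sample 2 was the highest library for 16 of them, and injury samples 2 and 3 were the top libraries for 12. Of the 19, 17 had a fitted log2 fold change under 0, beside 49.5% of all genes, with a median of -3.15. None passed edgeR's adjusted test, 11 had an unadjusted p under 0.05 and were lower, beside 2.36% of all genes, and 8 were lower with no overlap, beside 4.22%. Ms4a3, a membrane protein of granulocyte precursors, was 0.398, 3.6 and 1.18 CPM in injury samples 1, 2 and 3 and 0 to 0.1 CPM in conduit (edgeR adjusted p = 0.572). Olfm4, a specific granule protein, had 0.497, 8.37 and 0.771 CPM in the injury samples, in order, and 0.0724 to 0.151 CPM in the conduit samples (edgeR adjusted p = 0.666). Ctsg, cathepsin G of azurophil granules, had 0.174, 21.9 and 3.18 CPM in injury samples 1, 2 and 3 and at most 0.804 CPM in conduit, and like Elane was low in injury sample 1. The neutrophil defensin RatNP-3b had 5.57, 70.6 and 17.4 CPM in injury samples 1, 2 and 3 and 0.502 to 2.41 CPM across the conduit samples (edgeR adjusted p = 0.666). The defensins Defa5 and Np4, picked after their values were seen, had 85.2 and 92.2 CPM in injury sample 2 and at most 3.19 CPM in conduit. Defensin copies are similar in sequence, so reads can be split among them and each level is uncertain.

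Transcription factors and growth factor receptors of granulocyte formation were split: injury sample 2 was the highest library for 5 of the 13 tested. Of 15 listed genes these 13 passed the filter, with a median log2 fold change of -0.03. Of these, 1 was lower at an unadjusted p under 0.05, beside 2.36% of all genes. That gene was Myb, the factor that keeps blood precursors dividing (edgeR adjusted p = 0.702). It had 0.547, 6.86 and 2.82 CPM in injury samples 1, 2 and 3 and 0.1 to 0.527 in conduit. The groups did not overlap, as for 4.22% of all genes in that direction. Cebpe, which drives the specific granule genes, had 3, 92 and 18 reads in injury samples 1, 2 and 3 and at most 3 in each conduit library, and so failed the filter. Kit and Runx1, which other cells of the ganglion can express, lay at 40.1 to 43.6 and 28 to 36.1 CPM over all 6 libraries; both were picked after their values were seen.

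For genes of the surface and oxidase of mature neutrophils, many of which macrophages also express, injury sample 2 was the highest library for 8 of the 11 tested, and injury samples 2 and 3 were the top libraries for 2. Of 17 listed genes these 11 passed the filter, with a median log2 fold change of -0.50, 1 lower and 1 higher at an unadjusted p under 0.05, beside 2.36% and 2.99% of all genes. The lower gene was Ncf1, a subunit of the phagocyte oxidase, at 5.57, 21.2 and 9.81 CPM in injury samples 1, 2 and 3 and 3.04 to 6.37 in conduit (edgeR adjusted p = 0.89). The higher gene was Fcgr3a, an Fc receptor, between 1.08 and 1.82 CPM in injury and between 1.78 and 6.64 CPM in conduit (edgeR adjusted p = 0.758), with its highest value in conduit sample 1.

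Among genes for signals that call neutrophils or sense their products, none passed at an unadjusted p under 0.05 in edgeR's test. Of 15 attractants and growth factors, 8 passed the filter and 0 passed edgeR's test, with a median log2 fold change of -0.23. Cxcl1, a main neutrophil chemokine, was 0.289 to 0.71 CPM in injury and 0.0753 to 0.527 in conduit. Of 11 receptors and signalling genes for calprotectin, cathelicidin and lipocalin 2, 10 were tested, with 0 called and a median of 0.11. Tlr4, a receptor for calprotectin, was 3.5 to 4.87 CPM in injury and 3.37 to 6.3 in conduit. Lrp2, which takes up lipocalin 2, was highest in injury sample 2, at 11.3 CPM against 1.33 to 2.85 in the other libraries. Of 9 inhibitors of neutrophil proteases tested, 0 were called, with a median of 0.05; Serpinb6a was 289 to 340 CPM over the injury samples and 210 to 340 over the conduit samples.

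Markers of other blood and bone cells, of which edgeR called 0 after adjustment, also differed among the libraries. The counts below at an unadjusted p under 0.05 stand beside 2.36% of all genes lower and 2.99% higher, and those of fold changes under 0 beside 49.5%. Markers of dividing cells (14 of 14 tested, 14 with a fitted log2 fold change under 0 and 7 of these at an unadjusted p under 0.05) summed to 79.1, 193 and 144 CPM in injury samples 1, 2 and 3 and from 72.8 to 89 CPM across conduit samples. Markers of platelets and megakaryocytes (5 of 9 tested, 5 under 0, 3 at an unadjusted p under 0.05) reached 14.1, 90.7 and 27.1 CPM in the injury samples and 6.5 to 11.5 CPM across conduit samples; among them Gp1bb had no read in any library. Markers of bone and cartilage (13 of 13 tested, 11 under 0, 6 lower and 1 higher at an unadjusted p under 0.05) reached 173, 364 and 477 CPM in the injury samples and 151 to 209 CPM across conduit samples. By these sums, injury samples 2 and 3 were the top libraries in all 3 lists, as for the 10 genes. The bone sum was highest in injury sample 3, but injury sample 2 was the highest library for 8 of the 13 bone and cartilage genes. Among the others, Ctsk was 39 CPM in injury sample 2 and 116 in injury sample 3, and Acp5 16.3 and 62.8.

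Erythroid markers (14 of 14 tested, 14 under 0, 13 at an unadjusted p under 0.05) summed to between 4840 and 5790 CPM in the injury samples and between 682 and 1450 CPM in the conduit samples. Unlike the 10 genes, this sum was of similar size in injury sample 1, at 5170 CPM. Eosinophil and basophil markers (3 of 6 tested, 3 under 0, 2 at an unadjusted p under 0.05) reached 3.13, 10.6 and 4.55 CPM in injury samples and 1.28 to 2.86 CPM across conduit samples. Of 8 mast cell markers, 7 were tested, 2 of these were under 0, and the median log2 fold change was 1.24. At an unadjusted p under 0.05, 1 was lower and 1 higher. The mast cell markers summed to 0.721, 9.79 and 3.86 CPM in injury samples and 2.34 to 8.64 CPM across conduit samples. Of B cell and precursor markers, 7 of 12 were tested, 6 were under 0 and 3 of these had an unadjusted p under 0.05. The listed genes summed to 55, 89.1 and 63.3 CPM in injury samples and 57.5 to 64.4 CPM across conduit samples. Most of that sum was Ebf1, at 54.1, 59.2 and 51.1 CPM in injury samples and 56.2 to 61.5 CPM across conduit samples. Cd79a had 0.249, 11 and 4.55 CPM in injury samples and 0.628 to 1.06 CPM across conduit samples. The part of any of these cell types in the levels of the 10 genes was not tested.

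**Figure D4:**
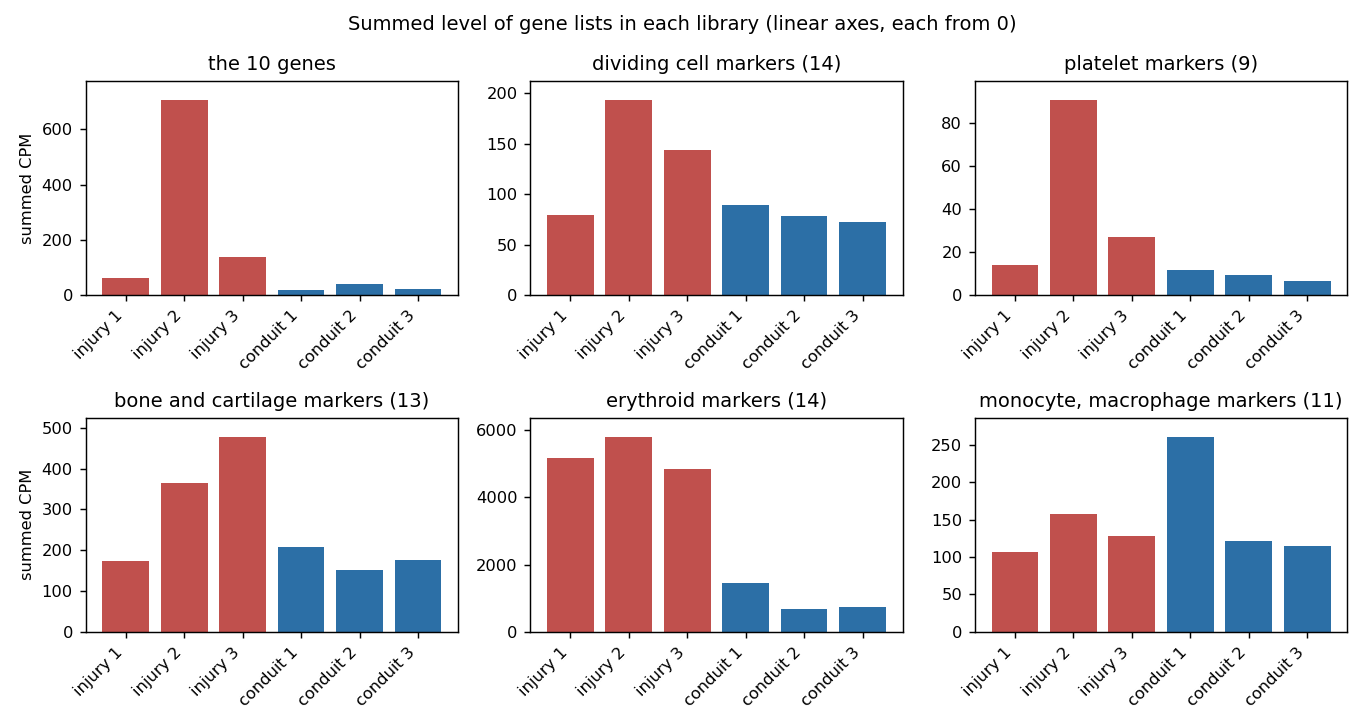
Summed CPM of the 10 genes and of 5 marker lists in each injury (red) and conduit (blue) library, on linear axes from 0, with the number of listed genes in each title. Injury samples 2 and 3 are the highest bars for the 10 genes and for dividing cell, platelet and bone markers, all 3 injury samples are high for erythroid markers, and conduit sample 1 is highest for monocyte and macrophage markers.

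Outside all lists, the genes whose levels over the 6 libraries were most like the mean standardised log2 CPM of the 10 were sought among 1183 genes that spanned at least 2 log2 units. The 8 with the highest Pearson r were Tubb1 (r = 0.985), Gp5 (0.981), Ifitm6 (0.976), E2f2 (0.975), Ptgis (0.973), F2rl3 (0.971), Cd101 (0.970) and Kif20a (0.970). Tubb1, a beta-tubulin, was 1.39, 14.5 and 5.76 CPM in injury samples 1, 2 and 3 and 0.41, 1 and 0.477 CPM in conduit samples 1, 2 and 3. Gp5, a platelet glycoprotein, had 1.47, 7.21 and 2.41 CPM in injury samples and 0.651 to 1.16 CPM across conduit samples. Of the 1183 genes 75 had r above 0.9, and the 6 points share depth and the high value of injury sample 2.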

How the data were processed

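RNA-seq of 6 samples of rat trigeminal ganglia, 3 injury and 3 conduit by their titles, was analysed. According to the labels' protocols, mRNA was purified from TRIzol extracts before library construction. HISAT2, SAMtools, HTSeq, fastp and DESeq2 and the build mRatBN7.2 come from the submitters' processing notes; their versions, the annotation and the strand setting were not given in the sources used here. Counts deposited by the authors are whole reads per gene symbol. The deposited FPKM are those counts per length and library total: over 14394 genes checked, both gave the same length within 1% in every library.

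Counts were fitted in R 4.3.3 with edgeR 4.0.16 (filterByExpr with a minimum of 10 counts, TMM, robust quasi-likelihood F test, Benjamini-Hochberg adjustment, threshold 0.05) on all 16478 genes left. The SE is the fold change over the root of F. DESeq2 1.42.0 and limma 3.58.1 were alternatives, with other scalings, filters, log2(FPKM + 1) and log2(FPKM + 0.1), replicate number or batch as a term, and libraries left out. Log2 CPM used a prior count of 2. The members and gene lists were chosen with earlier results of these data known. Other genes were named by rule: up to 4 per list by smallest p, of which the text describes 1 to 3, plus Ctsg, Ltf, Cebpe, Cxcr2, Tlr4 and Csf3, and for likeness the 8 genes with the highest r. P-values measure the spread between samples, which may be technical.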

Additional observations from a re-analysis of the deposited data

How the results depend on the processing

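All 168 fold changes of single genes under 17 other settings were below 0. Without injury samples 2 and 3, added after seeing the data, Elane (2.67), Lcn2 (0.16) and Csf3r (0.26) changed sign, the median of the 10 was -0.85; edgeR then called 23 genes, with the spread taken from the conduit libraries alone and the lone injury library assumed to vary like them. With each library left out the median ran from -4.53 (without conduit sample 2) to -1.98 (without injury sample 2), and on log2(FPKM + 1) it was -2.05. The number of genes called by edgeR, 1 with all libraries, was 6 with no filter, and it ran from 0 (without conduit sample 3, with 1215 at an unadjusted p under 0.05) to 38 (without injury sample 1), with 35 without injury sample 3 and 6 without conduit sample 1. DESeq2 called 210, limma 9 on log2(FPKM + 1) and 5 on log2(FPKM + 0.1). With batch as a term edgeR called 0, with 257 at an unadjusted p under 0.05. The cause was not tested.

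With the replicate number as a block edgeR called 0 genes, with 554 at an unadjusted p under 0.05, and the median of the 10 was -3.35. The numbers do not pair the samples: deviations of samples with the same number correlated at -0.42, 0.06 and -0.07. Among the 10 genes, DESeq2 called 3, and no other alternative called any. Batch 2 alone gave no test, and the filter of 10 counts in every library left out Mpo and Elane. Elane has under 3 reads in injury sample 1 and in conduit samples 1 and 3, so its fold is limited by depth.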
